A study of Mus musculus with 38 samples.

Results

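Gdf15, growth differentiation factor 15, is a secreted stress cytokine, and its messenger RNA was followed here across all samples of a mouse study of dibenz(ah)anthracene (DBahA), a polycyclic aromatic hydrocarbon. The gene is 1 of 20018 genes with a symbol on the arrays. It was chosen by its measured rise in lung, so its differences between dose groups in lung are given as a description with no test. Male MutaMouse, a transgenic strain used for mutation assays, were about 10 weeks old and received DBahA in olive oil by oral gavage on 28 consecutive days. The doses were 0 (D0, olive oil only), 6.25 (D1), 12.5 (D2) and 25 (D3) mg per kg body weight per day. Lung and forestomach were taken 72 hours after the last dose, and total RNA came from random sections of each organ. The 4 dose groups held 5, 5, 4 and 5 mice with lung arrays, in order of dose, and 5, 5, 4 and 4 of the same mice with forestomach arrays. Each array held tissue RNA in the Cy5 channel and a universal mouse reference RNA in the Cy3 channel, and a level below is the log2 ratio of tissue to reference.

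Gdf15 encodes a distant member of the TGF-beta superfamily that is made as a precursor, cleaved by proprotein convertases and released from the cell. In the circulation it acts through GFRAL, a receptor of the hindbrain that signals with the co-receptor RET and lowers food intake. Its transcription is known to be raised by p53 after DNA damage and by the integrated stress response through ATF4 and CHOP (Ddit3). DBahA is metabolised to reactive diol epoxides that form bulky DNA adducts.

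The arrays carried 1 probe for Gdf15 (accession NM_011819), printed as 1 spot per array, with no outlier flag and no saturation on any array. In RefSeq's GRCm38.p6 annotation the gene lies on the minus strand of chromosome 8 at chr8:70629393-70632470, and RefSeq gives it 2 transcript start windows of 300 bases, chr8:70632407-70632706 and chr8:70632046-70632345. The second window lies inside the annotated span of the gene. The stretch of 236 bases just upstream of the annotated gene is shown because p53 target genes moved with Gdf15 in lung, as described further down. It is written 5′ to 3′ on the gene's strand (chr8:70632471-70632706), with CATG, a core sequence of the p53 half-site, in capitals.
Gdf15 upstream: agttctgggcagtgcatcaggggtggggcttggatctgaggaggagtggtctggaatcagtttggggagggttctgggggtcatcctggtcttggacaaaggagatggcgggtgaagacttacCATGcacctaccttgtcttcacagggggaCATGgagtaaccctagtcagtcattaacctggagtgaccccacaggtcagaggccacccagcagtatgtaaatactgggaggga
CATG was found at -127 and -98 relative to the transcript start of the first window, and 61.1% of the 32851 RefSeq promoter windows of the same length held it on either strand. The full p53 half-site was not found in either Gdf15 window, and 8.36% of all windows held it. It was found in the windows of 8 of the 16 p53 list genes that had a window, among them Cdkn1a and Bax. A gene counted if any of its windows held the site, so this count is not on the scale of the share of single windows. TGATGNAAN, an amino acid response element bound by ATF4 and CHOP, GCGTG, the core of the dioxin response element, TGANTCA, the AP-1 site, GCGGGGGCG, the Egr1 site, and TGACGTCA, the cAMP response element, were not found in either Gdf15 window on either strand. They were held by 3.95%, 32.4%, 7.81%, 2.91% and 1.79% of all windows. TATAAA, the TATA box, and GGGCGG, the GC box, were not found either (13.6% and 35.7% of windows). CACGTG, the E-box, was found at -83 of the second window and CCAAT, the CCAAT box, on its opposite strand at -6, beside 7.15% and 37.4% of all windows. Sequence outside the windows of 300 bases was not searched, so a site absent here may lie elsewhere at the gene.

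The arrays lay on 5 slides read on 3 scan dates, and the lung and forestomach of a mouse lay on the same slide, except for the second forestomach array labelled mouse 18. The share of probes well above background in Cy5 ran from 30.1% to 63.8% over the 38 arrays. Markers of alveolar type 2, alveolar type 1, club and endothelial cells were high in lung, with mean log2 ratios over the mice of 4.99, 3.88, 6.71 and 4.16. In forestomach, keratins and Trp63 of squamous epithelium averaged 3.26. Club cell markers, of which 2 of 3 were measured, were high there too, at 4.68. None of the 51 markers of 10 cell types and tissues was called at any dose in either tissue. Few probes of any kind were called: 0.555% higher and 0.0844% lower in lung at D3, and 0% in forestomach. Counts of 0 over so few markers therefore cannot show that cell content was alike between dose groups. In lung, heart muscle markers averaged 0.37 to 1.70 per mouse at D0 and 0.15 to 2.86 at D3, and macrophage markers 2.21 to 3.44 and 2.77 to 3.57; their part in the lung values was not tested. Forestomach samples differed in their content of glandular stomach markers, whose mean log2 ratio per mouse ran from 0.62 to 6.65 at D0 and from 3.62 to 6.22 at D3. The low end at D3, 3.62, is the average of the 2 forestomach arrays labelled mouse 18. These ranges were read from each marker's brightest probe in forestomach. Read from the brightest probes in lung, the 2 forestomach arrays labelled mouse 18 (D3) had glandular means of 0.99 and 6.33. The first lay on slide 4 with the lung of mouse 18, and the second on slide 5, which held the lung of mouse 20, whose forestomach was not analysed here. Whether both arrays came from mouse 18 was not tested. They were averaged to 1 replicate as labelled, so the D3 forestomach n of 4 and the D3 values on slides 4 and 5 rest on that label. The limma difference of D3 from D0 in forestomach is also given for each array alone. The permutation tests, the correlations and the lung minus forestomach values are given only with the average. In whole tissue, a change in the number of cells that make an RNA cannot be told apart from a change in RNA per cell.

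In lung, with loess, Gdf15 stood far below the reference in control mice and above it in every DBahA mouse. At D0 the log2 ratios of mice 1 to 5 were -2.13, -2.39, -1.85, -1.66 and -1.95, a mean of -1.996 ± 0.28 (SD, n = 5). At D1, mice 6 to 10 had 1.30, 0.71, 0.14, 1.10 and 0.46, a mean of 0.74 ± 0.47 (SD, n = 5). The lowest D1 mouse thus lay above every control mouse. At D2, mice 11, 12, 13 and 15 had 1.34, 1.88, 1.46 and 0.75, a mean of 1.36 ± 0.47 (SD, n = 4). At D3, mice 16 to 20 had 1.81, 1.58, 1.35, 1.94 and 1.52, a mean of 1.64 ± 0.23 (SD, n = 5). The D0 range did not overlap any treated group, and D1 did not overlap D3, where all 5 mice lay above all 5 of D1. D2 overlapped both of its neighbours: 3 of its 4 mice lay above all of D1, and 4 of the 5 D3 mice lay inside the range of D2. The position against the reference depended on the scaling. With median centring, treated lungs lay on both sides of it, from -1.35 (mouse 8) to 1.38 (mouse 12). Control lungs then ran from -3.65 to -2.96, still below every treated lung.

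**Figure D1:**
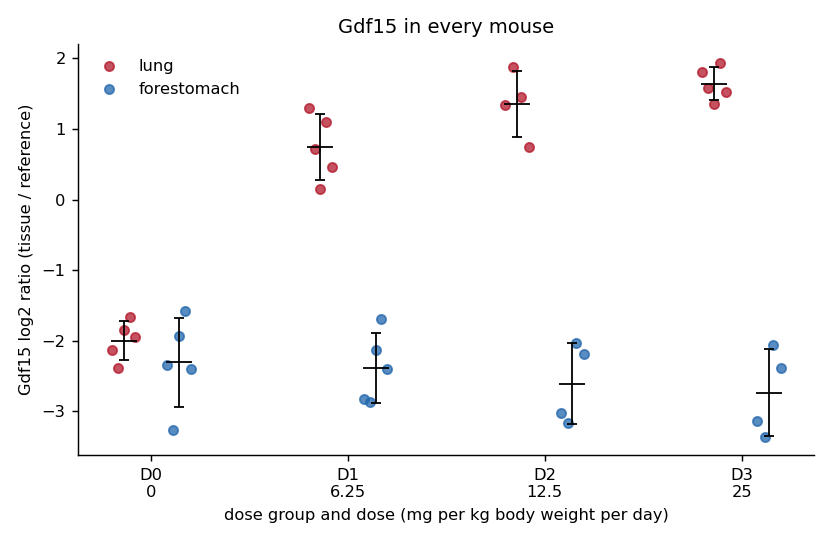
Log2 ratio of Gdf15 to the reference RNA in every mouse (points), by dose group and tissue, with the group mean and SD (bars). Lung rises from a mean of -1.996 at D0 to 1.64 at D3, while the forestomach groups stay between -2.30 and -2.73.

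The change in lung is visible in the scanner intensities. The median Cy5 intensity of the Gdf15 spot was between 131 and 292 in the 5 control lungs, against a local background of 62 to 71. It was between 639 and 3372 at D1, between 851 and 6149.5 at D2 and between 1610 and 5057.5 at D3. The lowest intensity of a treated lung exceeded the highest of a control lung. The Cy3 intensity of the reference in the same spot stayed between 1245 and 1700 over the lung arrays. All 19 lung arrays had the spot well above background.

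**Figure D2:**
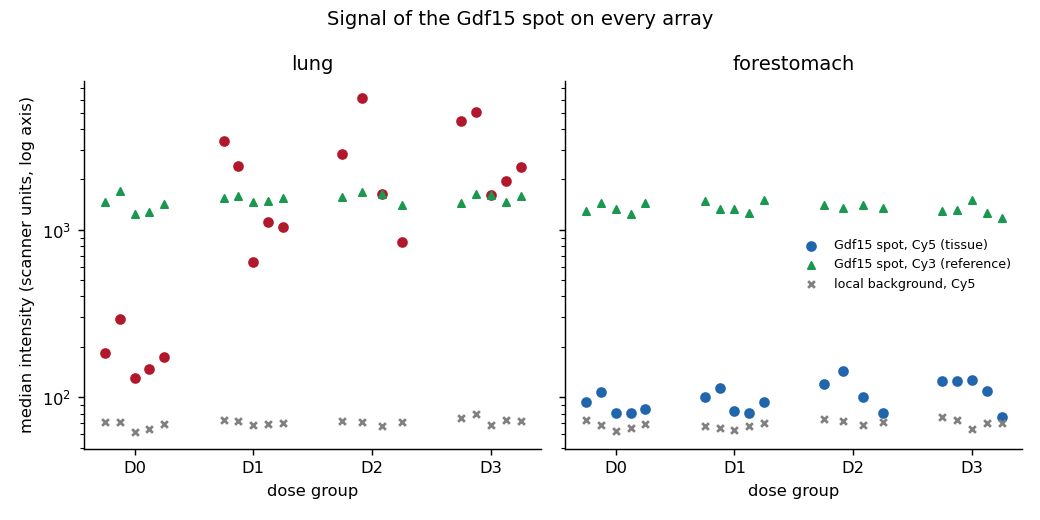
Median intensity of the Gdf15 spot on every array (log axis), for tissue RNA in Cy5, reference RNA in Cy3 and the local Cy5 background, by dose group in each tissue. Treated lungs lie at 639 or above while the forestomach spot stays at or under 143.5, close to its local background, and the reference spot stays between 1177 and 1700.

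Against D0, lung Gdf15 was 6.67-fold higher at D1 (95% interval 4.95 to 8.99), 10.2-fold higher at D2 (7.44 to 14.0) and 12.4-fold higher at D3 (9.22 to 16.8). On the log2 scale these differences were 2.74 ± 0.21, 3.35 ± 0.22 and 3.64 ± 0.21 (SE, limma fit over 19 lung arrays). At each dose the difference was the highest of the 55681 probes, which is what chose the gene. In the log ratios of the scanner software, which subtract background, it ranked 2, 3 and 3 instead, behind a probe of Cdkn1a among others, and in Cy5 alone it ranked 2 at each dose. The 3 differences were 3.29, 3.91 and 4.23 with the background-subtracted ratios, where the control lungs stood at -2.57 ± 0.12 (SD, n = 5). These ratios differ from the main values in normalisation as well as background. With normexp background correction and an added offset of 50 before loess, the differences were 2.73, 3.35 and 3.63. That offset is close to the local background of the control lungs, so these values cannot show what background subtraction alone does.

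On the log2 scale, most of the D3 difference was present at the lowest dose. D1 held 75.3% of the log2 difference of D3, and D2 held 92.2%. From D1 to D2, with the dose doubled, Gdf15 was higher by 0.61 (95% interval 0.16 to 1.07), and from D2 to D3 by 0.28 (-0.17 to 0.74). D3 exceeded D1 by 0.90 (0.47 to 1.33). Over the 14 treated lungs the level was higher by 0.45 ± 0.12 (SE) for each doubling of the dose. D3 exceeded D1 within each of the 5 slides, by 0.51, 0.87, 0.84, 1.21 and 1.06 on slides 1 to 5. D3 exceeded D0 by 3.97, 3.60, 3.20 and 3.56 on slides 2 to 5, and slide 1 held no control mouse. D2 kept no fixed place within slides: it lay between D1 and D3 on slide 1 (1.34), above D3 on slides 2 and 4 (1.88 and 1.46) and below D1 on slide 3 (0.75). At D2 the 3 within-slide differences from D0 were wider apart, at 4.26, 2.41 and 3.30 on slides 2, 3 and 4. Mice of a group varied more in Gdf15 than in most probes: the residual SD in lung was 0.37, at the 92.6th percentile of the 27482 probes well above background, whose median was 0.18.

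**Figure D3:**
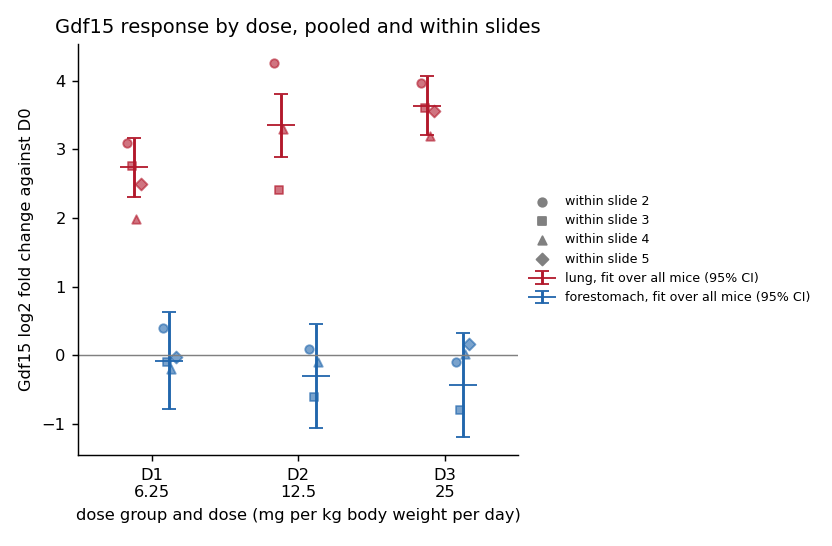
Log2 fold change of Gdf15 against D0 at D1, D2 and D3 in lung and forestomach, from the fit over all mice (bars, 95% interval) and within each slide that held control mice (symbols). Every within-slide lung value lies above 1.9, and the forestomach values lie on both sides of 0.

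In forestomach, Gdf15 was not called at any dose. At D0 the log2 ratios of mice 1 to 5 were -2.35, -3.26, -1.93, -1.58 and -2.39, a mean of -2.30 ± 0.63 (SD, n = 5). At D1, mice 6 to 10 had -2.83, -2.86, -2.13, -1.69 and -2.40, a mean of -2.38 ± 0.49 (SD, n = 5). All 5 D1 mice lay inside the D0 range. At D2, mice 11, 12, 13 and 15 had -3.02, -3.17, -2.03 and -2.19, a mean of -2.60 ± 0.57 (SD, n = 4). At D3, mice 16 to 19 had -3.14, -3.36, -2.06 and -2.38, a mean of -2.73 ± 0.61 (SD, n = 4). Only mouse 17 at D3 fell below the D0 range.

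The differences from D0 in forestomach were -0.08 ± 0.34, -0.30 ± 0.36 and -0.43 ± 0.36 (SE) on the log2 scale at D1, D2 and D3, with limma adjusted p of 1.00 at each dose after Benjamini-Hochberg adjustment. Exact two-sided permutation tests of D1, D2 and D3 against D0 gave p = 0.825, 0.492 and 0.333 (adjusted 0.825, 0.615 and 0.556 over 5 tests of this gene in forestomach). With dose, Spearman's rho was -0.28 (p = 0.256, adjusted 0.556) and Pearson's r was -0.31 (p = 0.212, adjusted 0.556) over 18 mice by permutation tests, and r was -0.23 without the 4 D3 mice, which lie farthest from the median dose. With loess, the upper end of the 95% interval at D3 was a 1.25-fold increase. The D3 difference was 0.24 ± 0.17 (SE) with median centring and -0.55 ± 0.45 (SE) with the background-subtracted ratios. The loess interval therefore does not bound an increase under other processing. The call rule was passed by 0 of 55681 probes (0%) in forestomach at D1, D2 and D3, while 2404, 1728 and 1984 probes had an unadjusted limma p under 0.05.

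The forestomach signal lay near the limit of detection. The Cy5 intensity of the spot ran from 76 to 143.5 over the 19 arrays, 1.08 to 1.98 times the local background, and 13 of the 19 arrays had it well above background: 3 of 5 at D0, 3 of 5 at D1, 3 of 4 at D2 and 4 of 5 at D3. The highest forestomach intensity was below the lowest of a treated lung, 639. Forestomach values also followed the slide, with means of -2.997, -3.16, -1.96, -2.004 and -2.34 on slides 1 to 5, a spread wider than that between dose groups. Within slides, D3 differed from D0 by -0.10, -0.80, 0.01 and 0.17 on slides 2 to 5. With slide as a block the differences from D0 were 0.03 ± 0.13, -0.18 ± 0.15 and -0.26 ± 0.14 (SE), with limma adjusted p of at least 0.964. The sign of a difference this small depended on the scaling, and median centring gave 0.12, 0.27 and 0.24, not called. With the first or the second array of mouse 18 alone the D3 difference was -0.40 or -0.47, and with the glandular marker level as a covariate it was -0.41, none of them called.

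Control lung and control forestomach lay close together in Gdf15, with lung higher by 0.31 on the log2 scale (95% interval -0.28 to 0.90). Lung exceeded forestomach by 3.12 at D1 (2.53 to 3.71), 3.96 at D2 (3.30 to 4.62) and 4.37 at D3 (3.75 to 5.00). In the order of the 8 groups, lung at D3, D2, D1 and D0 was followed by forestomach at D0, D1, D2 and D3. The 4 forestomach groups did not differ among themselves beyond their spread, nor did control lung from control forestomach. The closeness of the controls depended on the processing. With the background-subtracted ratios of the scanner software control lung stood at -2.57 and control forestomach at -4.003 ± 0.48 (SD, n = 5), while D3 lung stood at 1.66. With median centring the control ranges did not overlap, at -3.65 to -2.96 in lung and -4.57 to -3.92 in forestomach. With normexp and its added offset of 50 they overlapped, at -2.39 to -1.63 and -3.26 to -1.58.

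The lung response at D3 exceeded that of forestomach by 4.07 ± 0.42 (SE; 95% interval 3.21 to 4.93) on the log2 scale. This difference contains the lung contrast that chose the gene and is given without a test. Both tissues came from the same mice, and with mouse as a fixed or random replicate block the paired value was 4.10 ± 0.42 or 4.07 ± 0.40 (SE). Mice that were high in lung for their dose were not shown to be high or low in forestomach. Over 18 mice, deviations from the dose group means had Pearson's r of -0.02 (p = 0.951) and Spearman's rho of 0.07 (p = 0.816) by permutation within dose groups, with an adjusted p of 0.951 over the 2 measures. Without mice 8 and 15, whose lung deviations from the dose group means lay farthest from the median deviation, r was 0.21. With slide means also removed r was 0.50 (permutation p = 0.1003), an alternative chosen after seeing the data. Median centring in place of loess, which was not chosen in that way, gave r of 0.51 (permutation p = 0.0631). Spearman's rho was then 0.48 (permutation p = 0.0741). The sign and size of r thus depended on the processing, and none of these permutation p-values was under 0.05.

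Cdkn1a, which encodes the cell cycle inhibitor p21 and is the best known p53 target, moved with Gdf15 in lung. Its log2 ratio was -0.997 ± 0.25 in the D0 lungs and 1.93 ± 0.32 in the D3 lungs (SD, n = 5 each). The differences from D0 were 2.19 ± 0.17, 2.73 ± 0.18 and 2.93 ± 0.17 (SE) at D1, D2 and D3, each called by limma, with an adjusted p of 1.87e-09 at D3. Cdkn1a was named because it had the next largest rise in earlier results of these data, so its lung calls are not independent evidence. These lung values come from the brighter of 2 Cdkn1a probes. At that probe the dose shape was close to that of Gdf15: D1 held 74.8% and D2 93.3% of the D3 difference. Size depended on the probe: with background-subtracted ratios the D3 difference was 2.94 at the brighter probe and 4.61 at the other. In forestomach Cdkn1a differed from D0 by -0.08 at D3 and was not called (limma adjusted p = 1.00). Unlike Gdf15, it was well above background on all 19 forestomach arrays.

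**Figure D4:**
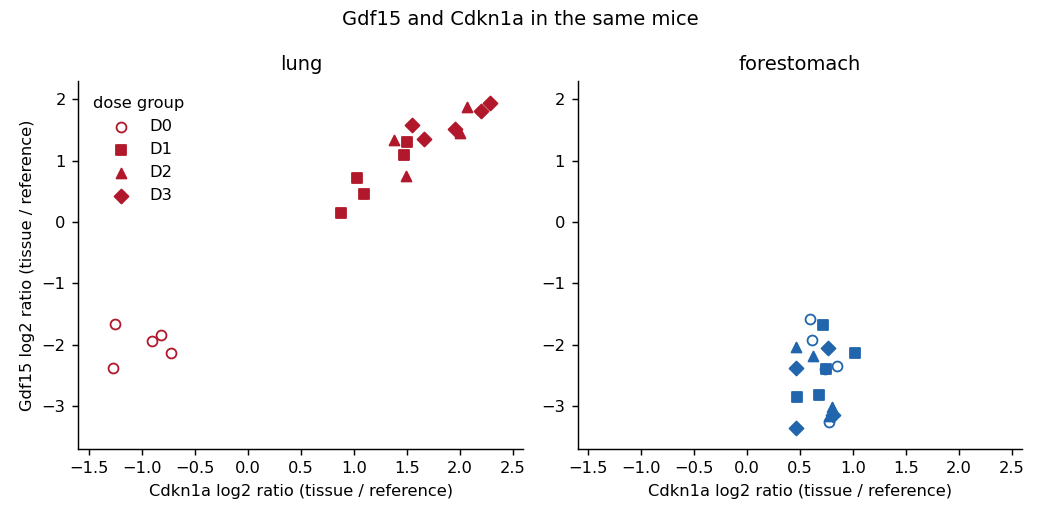
Log2 ratio of Gdf15 against that of Cdkn1a in every mouse, in lung and in forestomach, with a symbol for each dose group. The control lungs lie apart at the lower left and the treated lungs at the upper right, while all forestomach samples lie in 1 cloud with Gdf15 below -1.5.

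Genes of the p53 pathway rose in lung beside Gdf15. Of the 24 p53 target genes listed, 7, 12 and 14 were called higher at the low, middle and high dose, and none was called lower. Over all probes, 0.138%, 0.253% and 0.555% were called higher at these doses, and 0.00180%, 0.0108% and 0.0844% lower. The list's median log2 difference was 0.49, 0.73 and 0.65, beside medians of 0.00 for all probes. The list holds genes known from earlier results of these data to rise, so its count is not independent evidence. After Cdkn1a, the largest D3 differences were in Phlda3, an inhibitor of AKT signalling (2.04 ± 0.11), Ccng1, cyclin G1 (1.95 ± 0.20), Aen, an apoptosis-enhancing nuclease (1.59 ± 0.14), and Bax, a mitochondrial effector of apoptosis (1.43 ± 0.11), with SE and limma adjusted p of 1.02e-05 or less. Mdm2, the ubiquitin ligase that degrades p53, differed by 0.83 ± 0.11 (limma adjusted p = 0.000377). Sesn1, Fas and Ddb2, also on the list, differed by -0.17, 0.04 and -0.19 and were not called. Over the 14 called genes, D1 held 54.2% to 94.0% of the D3 difference (median 71.4%), and Gdf15 lay inside that range. With median centring in place of loess, only 0, 1 and 4 of the 24 were called at D1, D2 and D3. In forestomach 0 of the 24 were called at each dose by limma, and 1 had an unadjusted p under 0.05 at each.

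Of the 10 genes of a list of known Gdf15 regulators, 2 were called at D3, 1 in each direction, beside 0.555% of all probes called higher and 0.0844% lower. Trp53, which encodes p53 itself, a protein regulated largely after translation, differed by -0.10 ± 0.16 in lung at D3 (limma adjusted p = 0.892). Atf4 and Ddit3, the transcription factors of the integrated stress response, differed by -0.26 ± 0.12 and 0.15 ± 0.10 and were not called. Of this list, Egr1, an immediate early transcription factor, was called higher at D3 (0.68 ± 0.15, limma adjusted p = 0.0282), and Cebpb, a bZIP factor, was called lower (-0.60 ± 0.11, limma adjusted p = 0.00390). Neither was called at D1 or D2. Cebpb differed by -0.06 with median centring (limma adjusted p = 0.962) and by -0.39 with Cy5 alone (limma adjusted p = 0.539). Egr1 lost its call without any of 7 of the 10 D0 and D3 mice, with differences between 0.61 and 0.73 over all 10 exclusions.

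Of 20 genes of the integrated stress response, 0 were called in lung at D1 or D2, where with slide or scan date as a block 1 was called higher. At an unadjusted limma p under 0.05 the list had 3 genes at D1, 4 at D2 and 4 at D3, where 1 was higher and 3 lower. Of all 55681 probes in lung, 3638, 4492 and 6267 passed that limit at D1, D2 and D3. At D3, 0.555% of all probes were called higher and 0.0844% lower. At that dose Sesn2, which is also on the p53 list, was called higher (0.86 ± 0.20, limma adjusted p = 0.0351) and Cebpb lower. Sesn2 was no longer called without 8 of the 10 mice, each left out in turn. The list's median was -0.06 at D3. None of the 10 endoplasmic reticulum stress genes was called by limma, with differences from -0.34 to 0.19 at D3, where 1 had an unadjusted p under 0.05.

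Receptor, processing and family genes were measured as well. Gfral was not well above background on any lung array and differed by 0.04 ± 0.08 at D3, and Ret, well above background on 10 of 19 lung arrays, differed by 0.23 ± 0.12. None of the 6 receptor and processing genes was called, the convertase genes Furin, Pcsk5 and Pcsk6 included. Over all probes, 0.555% were called higher and 0.0844% lower at D3. Of 32 other ligands of the TGF-beta superfamily, Lefty1, an inhibitor of Nodal signalling, was called higher at D3 (0.72 ± 0.11, limma adjusted p = 0.00145), and the median of the list was -0.02. None of the 4 glial family ligands, which also signal through RET, was called by limma. At D1, D2 and D3, 0, 3 and 1 of them had an unadjusted limma p under 0.05, beside 3638, 4492 and 6267 of 55681 probes. Il6, Tnf and Ccl2, inflammatory cytokines, differed by -0.24, -0.02 and -0.11 at D3 and were not called. Il6 and Tnf were well above background on only 2 and 6 of 19 lung arrays. These cytokines were picked after their values were seen, from a list of 20 secreted stress factors. In lung 0, 1 and 1 of the 20 were called higher at D1, D2 and D3, and 0 lower. Over all probes, 0.138%, 0.253% and 0.555% were called higher. The list's median was -0.07 at D3. In forestomach 0 genes of any of these lists were called by limma, and each list had at most 1 gene with an unadjusted p under 0.05 at a dose.

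**Figure D5:**
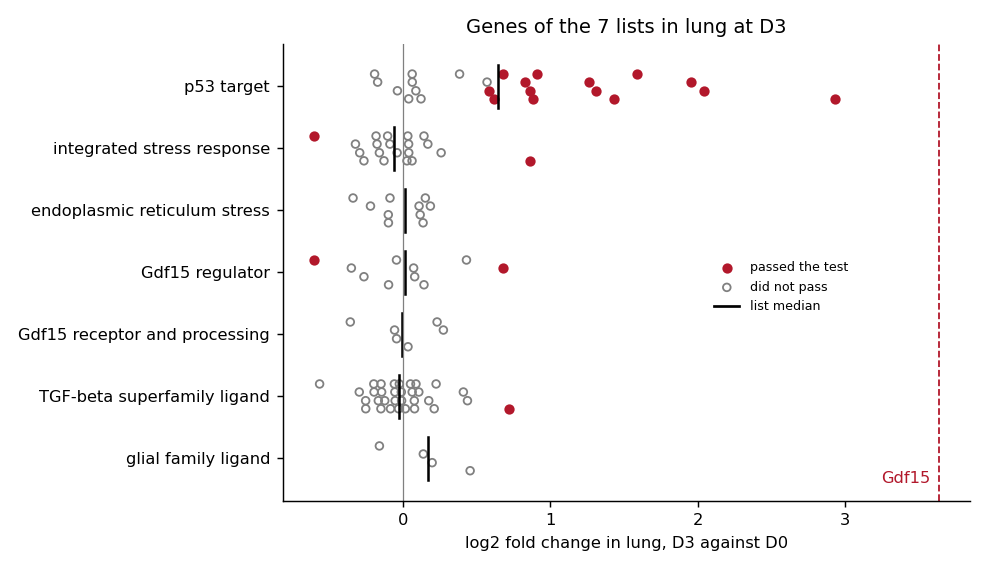
Log2 fold change in lung at D3 against D0 for each gene of 7 lists (points, filled where the gene passed adjusted p of at most 0.05 and a fold of at least 1.5), with the list median (bar) and the value of Gdf15 (dashed line). The p53 targets reach 2.93 (Cdkn1a) with a median of 0.65, and the medians of the other 6 lists lie between -0.06 and 0.17.

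The genes most like Gdf15 over the 19 lung mice, among 13686 genes with signal, were Phlda3 (Pearson's r = 0.99), Cdkn1a (0.98), Ephx1 (0.97), Trp53inp1 (0.97), Bax (0.97), Dglucy (0.96), Thyn1 (0.96) and Ces2e (0.96). All 8 were called higher at D3, by 1.05 to 2.93 on the log2 scale. These mice share dose groups, and the control lungs stand apart from the treated ones, so a gene raised by DBahA scores high here. With dose group means removed, the most alike were Spryd4 (r = 0.86), Memo1 (0.81), Zcchc17 (0.81), Tsc22d1 (0.76), Psmd1 (0.76), Phlda3 (0.75), Mcur1 (0.75) and Nhsl1 (0.75), and of these Tsc22d1 and Phlda3 were called at D3. Cdkn1a ranked 32 by this measure (r = 0.67). Of these genes, Phlda3 alone was in both sets.

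Over the 18 forestomach mice, where Gdf15 followed the slide, the most alike of 12456 genes were Syne3 (r = 0.96), Cdkn2a (0.94), Hells (0.94), Crabp1 (0.94), Ccl3 (0.93), Snai1 (0.93), Trp53 (0.93) and Lpxn (0.93). None was called at D3. None of them was among the genes most like Gdf15 in lung, and Cdkn1a had r = -0.04 in forestomach. The part of the slide in these values was not tested.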

How the data were processed

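Dual-colour microarrays were hybridised with tissue RNA in Cy5 and universal mouse reference RNA in Cy3, with no dye swap. The deposited scanner files hold spot intensity values from Agilent Feature Extraction 10.7.3.1, together with log10 ratios. The deposited value table holds log2 ratios made by the authors (loess on median intensities, per the study's methods); against the values used here its slopes were 0.990 to 0.998. Intensities were normalised by loess within arrays without background correction, as in the study, and fitted with limma 3.58.1 (R 4.3.3) in place of MAANOVA. Of 62976 spots, 59305 were used, giving 55681 probes. A gene was called at an adjusted p of at most 0.05 (Benjamini-Hochberg over all probes) and a fold of at least 1.5. A listed gene was read from its brightest probe in the tissue. Genes named were Gdf15, Cdkn1a, called list genes (up to the 5 largest), 6 fixed regulators and receptors, and the 8 most correlated genes per measure; Mdm2, unchanged p53 targets, convertases, cytokines and the probes setting the rank were added after their values were seen. Gdf15 and the lists were chosen with earlier results of these data known. Permutation tests used 100000 draws or all rearrangements. Scripts were tested on simulated data. The number of arrays limits the precision. Forestomach of mouse 20 was not analysed here. 1 listed gene is not reported here.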

Additional observations from a re-analysis of the deposited data

How the results depend on the processing

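Gdf15 was higher in lung at each dose under all 9 alternatives and with any single mouse left out. The background-subtracted log ratios gave 3.29, 3.91 and 4.23 at D1, D2 and D3, and 4.78 for lung minus forestomach, and median centring gave 3.51 for that difference. In forestomach Gdf15 was called under no alternative. Its sign turned with median centring (0.12, 0.27 and 0.24 at D1, D2 and D3), with background-subtracted ratios (0.0379 and 0.0826 at D1 and D2), and at D1 with slide (0.0286) or scan date (0.0532) as a block. Leaving out each mouse gave -0.32 to 0.10 at D1. The cause was not tested.

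Calls in lung depended on the scaling. At D1, D2 and D3, median centring called 0, 5 and 16 probes in lung and 0, 1 and 4 p53 targets, and Cy5 alone, added after seeing the data, called 33, 70 and 172 probes. The background-subtracted ratios called 160 and 225 probes at D1 and D2, and slide as a block called 130 and 242. The main counts were 78, 147 and 356. Without mouse 12 the D2 count was 93, the lowest of a range that reached 203. In forestomach at D3, a fit of D0 and D3 alone called 3 probes, and both arrays of mouse 18 as separate replicates gave 1. Cebpb was not called with median centring, background-subtracted ratios, Cy5 alone or the deposited table (fold under 1.5). Egr1 was not called with median centring, background-subtracted ratios or Cy5 alone, nor Lefty1 with median centring or Cy5 alone.

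For the same mouse, r between the tissues was 0.0578 with the deposited table, 0.51 with median centring, 0.21 without 2 mice and 0.50 with slide means removed. With mouse as a replicate block, lung minus forestomach at D3 was 4.10 (fixed) or 4.07 (random). The forestomach signal, at most 1.98 times local background, limits what could be measured there.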
